A study of Homo sapiens with 8 samples.

Results

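Histone genes were examined on 8 Affymetrix arrays of HaCaT, an immortalized human keratinocyte line. A probe set, the group of probes that reports 1 value, was taken as a histone probe set when every gene symbol annotated to it began with a histone gene prefix (H1-, H2AC, H2AX, H2AZ, H2BC, H3-, H3C, H4C and their older forms). The rule used names only and no measured value, but it was chosen with earlier results of these data known. It found 90 probe sets among the 54675 on the array, and 34 of them reached a signal of 50 on at least 1 array, against 19073 probe sets in all. Signals are the arrays' linear intensities, scaled so that each array has a trimmed mean of 100.

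The design has 8 groups of 1 array each. In 6 groups, adenoviral infection brought in LacZ as control, the constitutively active HRAS G12V or the dominant negative HRAS N116Y, and cells were either left untreated or given TGF-beta3 at 5 ng/ml for 24 h. A control siRNA and a p53 siRNA make up the remaining 2 groups, without a vector and without TGF-beta3. The groups come from the sample titles and the TGF-beta label. The source label of the 6 adenovirus samples contradicts both, so every direction of the TGF-beta3 effect rests on the titles and the TGF-beta label. All groups share 1 immortalized line, and p-values measure only the spread between single arrays, which may be technical.

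Core histones H2A, H2B, H3 and H4 form the protein spool of the nucleosome, and H1 binds the DNA that links nucleosomes. Most of their genes lie in clusters, are transcribed with DNA replication and give mRNAs that end in a stem-loop in place of a poly(A) tail; in this text they are called replication-dependent. Variant histones such as H2A.Z and H2A.X have genes that lie singly outside these clusters. Most are made through the cell cycle and largely give polyadenylated mRNA, while H2AX also gives a stem-loop mRNA. Some cluster genes also give polyadenylated mRNA, which is known from cells that leave the cycle or differentiate. The cDNA was primed with oligo-dT here, per the labels' protocols, so a signal reports mainly the polyadenylated form of each gene. Total histone mRNA was not measured.

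Promoters are shown for 5 genes that stand for the groups described here: H2BC21, H2BC12 and H2AC6, whose signals were higher with TGF-beta3, H4C11, 1 of the H4 genes read by probe sets that were lower, and the variant gene H2AZ1, which was also lower. Each line gives the 250 bases before the RefSeq start site, 5′ to 3′ along the gene. Capitals mark the octamer ATTTGCAT known from H2B promoters, the CCAAT box, the TATA box written as TATAAA, and TTTCGCGC as well as TTCCCGCC, which resemble E2F sites, each searched on both strands; neighbouring matches can overlap.
H2BC21 (GRCh38.p14, chr1:149886683-149886932, - strand): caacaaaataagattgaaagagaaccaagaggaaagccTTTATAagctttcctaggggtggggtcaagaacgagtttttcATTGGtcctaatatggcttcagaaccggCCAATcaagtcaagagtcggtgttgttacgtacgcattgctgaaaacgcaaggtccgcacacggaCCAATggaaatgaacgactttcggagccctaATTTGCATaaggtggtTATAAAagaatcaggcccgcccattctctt
H2BC12 (GRCh38.p14, chr6:27146859-27147108, - strand): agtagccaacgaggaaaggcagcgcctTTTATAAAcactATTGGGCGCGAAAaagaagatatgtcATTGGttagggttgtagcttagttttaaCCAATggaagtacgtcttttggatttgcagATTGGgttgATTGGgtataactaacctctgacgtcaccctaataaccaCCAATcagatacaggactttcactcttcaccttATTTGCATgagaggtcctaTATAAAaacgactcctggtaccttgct
H2AC6 (GRCh38.p14, chr6:26123922-26124171, + strand): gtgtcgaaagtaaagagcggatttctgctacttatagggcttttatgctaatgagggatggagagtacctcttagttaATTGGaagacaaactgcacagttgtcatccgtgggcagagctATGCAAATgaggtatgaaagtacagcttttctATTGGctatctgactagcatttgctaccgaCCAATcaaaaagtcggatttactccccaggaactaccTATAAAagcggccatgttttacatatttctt
H4C11 (GRCh38.p14, chr6:27823842-27824091, + strand): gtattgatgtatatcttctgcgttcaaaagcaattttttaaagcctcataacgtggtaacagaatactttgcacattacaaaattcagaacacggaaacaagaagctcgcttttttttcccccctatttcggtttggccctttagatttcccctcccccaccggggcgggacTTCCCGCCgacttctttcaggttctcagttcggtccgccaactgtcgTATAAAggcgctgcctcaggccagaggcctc
H2AZ1 (GRCh38.p14, chr4:99950276-99950525, - strand): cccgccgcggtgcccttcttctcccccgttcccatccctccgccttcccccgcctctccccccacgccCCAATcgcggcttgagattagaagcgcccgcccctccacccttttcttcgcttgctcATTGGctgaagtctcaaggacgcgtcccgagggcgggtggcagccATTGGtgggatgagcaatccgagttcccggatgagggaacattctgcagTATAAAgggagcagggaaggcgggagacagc

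Of the 73 gene symbols of the histone probe sets, 64 had such a window. The octamer was found in the windows of 13 of 16 H2B genes and 8 of 13 H2A cluster genes, but in 1 of 8 H3 cluster genes, 0 of 13 H4 genes and 0 of 7 variant genes, against 1.66% of all 27305 promoters. In H2BC21 and H2BC12 it began at position -46 from the start site, and TATAAA followed at -30 and -27. In H2AC6 the octamer lay on the other strand, at position -130. CCAAT was present in all 16 H2B, 13 H2A cluster and 8 H3 cluster genes but in 3 of 13 H4 genes (33.0% of all promoters). TTCCCGCC was found in 9 of 13 H4 genes, in 0 of the H2A cluster, H2B and H3 cluster genes and in 2.77% of all promoters. TTTCGCGC was found in 5 of 16 H2B and 5 of 13 H2A cluster genes and in 0.469% of all promoters. TATAAA was present in 37 of 57 replication-dependent genes and in 11.1% of all promoters. These are matches of letters, not bound sites.

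Most histone probe sets stayed dim on all arrays, as did most probe sets of any kind. A signal of 50 on any array was reached by 34 of 90 histone probe sets and by 19073 of all 54675. Of 72 replication-dependent probe sets 23 reached a signal of 50 on any array, and of 17 variant probe sets 11 did. The remaining probe set carries the name H1-10-AS1, an antisense RNA that shares the prefix, is not a histone gene and stayed below 50. By family, 2 of 14 H1, 15 of 26 H2A, 10 of 20 H2B, 3 of 12 H3 and 4 of 16 H4 probe sets reached 50, and of 2 probe sets that name both H2A and H3 genes 0 did. Just inside this limit were H2AX 213344_s_at with a highest signal of 52.9 and H3C6 214616_at with 54.2, and just outside were H2BC11/H2BC8 215779_s_at with 46.4 and H3C8 208496_x_at with 44.1. Of the 34, 4 reached the limit on a single array: H3C6 214616_at and H4C8 208180_s_at on the N116Y array with TGF-beta3, H2AC14 on the untreated N116Y array, and the H3 probe set 206110_at on the control siRNA array. A difference that sets such an array high is partly fixed by the limit, so counts are also given without these. The H4 probe set 208580_x_at and H2AX 213344_s_at were below 50 on all TGF-beta3 arrays, but reached it on at least 1 untreated adenovirus array and at least 1 siRNA array.

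Replication-dependent genes are near copies of each other, which limits what a probe set can name. Of the 23, 9 name several genes and 11 carry the suffix x_at, Affymetrix's mark for probes that can bind other transcripts, while of the 11 variant probe sets 0 do either. A change in 1 of these probe sets may thus belong to a relative of the named gene. Signals of different probe sets are not compared with each other here, since probes differ in affinity.

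Each array had 28.0% to 29.9% of its probe sets at 50 or more. All 5 keratinocyte markers with a named probe set (KRT5, KRT14, CDH1, DSG3 and LAMB3) were above 50 on all 8 arrays, and their summed signal was 15758 to 17628 on the untreated adenovirus arrays and 24394 to 27897 with TGF-beta3. Of other cell types' markers, COL1A1 and COL3A1 (2 of 6 fibroblast markers), MITF (1 melanocyte marker), HLA-DRA (1 leukocyte marker) and 0 endothelial markers reached 50 on any array. The summed fibroblast signal was 84.1 to 178 untreated and 227 to 417 with TGF-beta3; its part in the results was not tested. HRAS was 316 and 287 on the LacZ arrays, 109 and 86.1 on the G12V arrays and 67.1 and 58.1 on the N116Y arrays, and whether its probe set reads the vectors' transcripts was not tested. In bulk RNA, a change in the share of cells and a change in RNA per cell cannot be told apart.

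With TGF-beta3, 4 of 10 H2B and 3 of 6 replication-dependent H2A probe sets rose and 1 H2A probe set fell, 2 of 4 H4 probe sets fell, and so did 4 of 9 probe sets of the H2A variants, which read H2AX, H2AZ1 and H2AZ2. In the fit over the 6 adenovirus arrays (limma with Benjamini-Hochberg adjustment over all 19073 probe sets, adjusted p under 0.05), 8 of 23 replication-dependent probe sets rose and 3 fell, while 0 of 11 variant probe sets rose and 4 fell. The 8 include H3C6, which reached the signal limit on 1 treated array only, and are 7 without it. Of all probe sets tested, 11.0% rose and 11.7% fell. The median log2 change was 0.13 over the replication-dependent and -0.39 over the variant probe sets, against -0.0096 over all. At an unadjusted p under 0.05, 9 replication-dependent probe sets were higher and 4 lower, and 0 variants were higher and 6 lower, against 18.6% of all probe sets higher and 20.2% lower. The 11 variant probe sets read 5 genes, so the variant counts and median take some genes more than once. The difference between the classes was not tested.

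The risers were H2B and H2A genes with 1 H3 gene. H2BC21, an H2B gene outside the large cluster on chromosome 6, had signals of 37.8, 33.5 and 60.0 on the untreated LacZ, G12V and N116Y arrays and 90.7, 70.4 and 168 on the same vectors with TGF-beta3. The lowest treated array lay above the highest untreated one, and each vector's treated array was higher than its untreated one. The log2 change was 1.27 ± 0.16 (SE; adjusted p = 0.00689), which is 2.42-fold.

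H2BC5 was read by 2 probe sets and rose in both. With 209911_x_at its signals were 250.1, 169 and 356 untreated and 504, 313 and 665 with TGF-beta3, a log2 change of 0.93 ± 0.10 (SE; adjusted p = 0.00445), or 1.91-fold. With 222067_x_at they were 304, 252 and 470.1 and 497, 396 and 656, a change of 0.61 ± 0.10 (SE; adjusted p = 0.0122). The treated and untreated ranges overlapped in both, because the untreated N116Y array was above the treated G12V array, but within each vector TGF-beta3 gave the higher value. Both are x_at probe sets.

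H2BC12, whose probe set names 1 gene and is not an x_at set, went from 874, 634 and 1101 to 1166, 952 and 1539. It was higher with TGF-beta3 in each vector, and the ranges overlapped through the high untreated N116Y array. Its log2 change was 0.50 ± 0.09 (SE; adjusted p = 0.0158).

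Among H2A genes, H2AC6 rose from 111, 136 and 160.2 to 189, 178 and 438, with no overlap between treated and untreated arrays. The treated N116Y array was by far the highest, and the log2 change was 0.87 ± 0.22 (SE; adjusted p = 0.0386). Without the N116Y pair the change was 0.58, the lowest of the 3 fits that leave out 1 vector. The twin genes H2AC18 and H2AC19 share 2 probe sets: 214290_s_at went from 190.3, 148 and 295 to 369, 235 and 419, and 218280_x_at from 96.0, 58.1 and 139 to 162, 117 and 228. Both were higher with TGF-beta3 in each vector, with ranges that overlapped through the untreated N116Y array, and with log2 changes of 0.71 ± 0.13 (SE; adjusted p = 0.0161) and 0.83 ± 0.14 (SE; adjusted p = 0.0143).

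H3C6 214616_at had signals of 13.2, 12.9 and 20.6 untreated, at or below the floor of 20 apart from N116Y, and 41.3, 31.3 and 54.2 with TGF-beta3. Its log2 change of 1.03 ± 0.19 (SE; adjusted p = 0.0181) is understated by the floor, and the probe set passed the signal limit through 1 treated array.

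Of the 4 H4 probe sets 2 fell and 0 rose. Probe set 205967_at, which names 14 H4 genes, had 896, 457 and 458 on the untreated LacZ, G12V and N116Y arrays and 162, 204 and 119.9 with TGF-beta3. No treated array reached the lowest untreated one. The log2 change was -1.85 ± 0.24 (SE; adjusted p = 0.00707), or 3.61-fold lower, the largest of the 34. A second probe set for the same 14 genes, 208580_x_at, fell from 75.3, 66.7 and 68.6 to 34.3, 41.0 and 24.4, also without overlap, by 1.11 ± 0.20 (SE; adjusted p = 0.0167).

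The other H4 probe sets did not pass. H4C11 214463_x_at had a log2 change of -0.57 ± 0.23 (SE; adjusted p = 0.131) and was 64.2 and 65.4 in the G12V pair, nearly equal. H4C8 208180_s_at was below 26 on 5 of the 6 arrays and 62.0 on the treated N116Y array, with a change of 0.46 ± 0.28 (SE; adjusted p = 0.273).

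H2AC25, an H2A gene apart from the chromosome 6 cluster, was the remaining replication-dependent probe set that fell. It went from 233, 235 and 229 to 97.1, 116.5 and 168, all treated arrays below all untreated ones, with a log2 change of -0.91 ± 0.18 (SE; adjusted p = 0.0224).

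The remaining 12 replication-dependent probe sets had log2 changes from -0.72 to 0.46 and adjusted p-values of at least 0.0795. They include H1-2, a linker histone gene, at 0.28 ± 0.19 (SE; adjusted p = 0.308), and H2BC12L at 0.29 ± 0.09 (SE; adjusted p = 0.0795). H2BC11/H2BC8 210387_at and H2AC14 had lower means, -0.72 ± 0.28 (SE; adjusted p = 0.117) and -0.48 ± 0.26 (SE; adjusted p = 0.223). The H3 probe set 206110_at, which names 10 genes, was below 28 on all 6 arrays.

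Among the variants, H2AX, whose protein is phosphorylated around DNA breaks, fell most. Probe set 205436_s_at had 695, 848 and 821 untreated and 399.8, 547 and 310.2 with TGF-beta3, and 212525_s_at had 162, 141 and 168 and 68.9, 79.3 and 60.0. All treated arrays lay below all untreated ones in both. The log2 changes were -0.95 ± 0.16 (SE; adjusted p = 0.0143) and -1.18 ± 0.18 (SE; adjusted p = 0.0101), which are 1.93-fold and 2.27-fold lower. The third H2AX probe set, 213344_s_at, was between 27.2 and 50.2 on these arrays and gave 0.0040 ± 0.23 (SE; adjusted p = 0.994). H2AX gives both a stem-loop and a polyadenylated mRNA, and the files do not say which of its probe sets reads which.

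H2AZ1, the main gene of the variant H2A.Z, which marks promoters, went from 4569.6, 5281 and 4071 to 3629.7, 3745 and 2593 in 200853_at and from 4075, 5053 and 4022 to 3558, 3656 and 2851 in 213911_s_at. No treated array reached an untreated one in either. The first fell by 0.49 ± 0.11 (SE; adjusted p = 0.0294), and the second had a change of -0.39 ± 0.11 (SE; adjusted p = 0.057) and did not pass. The call of 200853_at was lost in each of the 3 fits that leave out 1 vector, where its change was -0.57 to -0.41.

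H2AZ2, the second H2A.Z gene, was read by 4 probe sets, all lower with TGF-beta3 and without overlap between the arrays. Of these 212205_at fell, from 376, 456 and 387 to 268, 347 and 307 (-0.41 ± 0.10 (SE; adjusted p = 0.0343)). The others had log2 changes of -0.48 (227085_at, adjusted p = 0.0641), -0.25 (212206_s_at, 0.324) and -0.18 (202487_s_at, 0.285). The H1 variant gene H1-10 was at -0.23 (adjusted p = 0.18) and the H3.3 gene H3-3A, in 213826_s_at, at 0.27 (adjusted p = 0.252).

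In 8 of 11 variant and 3 of 23 replication-dependent probe sets every treated array lay below every untreated one, against 20.7% of all probe sets. These 8 read only H2AX, H2AZ1 and H2AZ2, so they are repeated readings of these genes. The opposite held for 3 replication-dependent (2 without H3C6) and 0 variant probe sets, against 17.9% of all. In several H2B probe sets the untreated arrays lay apart from each other, which widens their ranges. With 1 array a group, vector and array cannot be told apart here. Leaving out 1 vector left 2 to 7 replication-dependent probe sets risen, 1 to 4 fallen and 1 to 3 variants fallen. Each range's lowest count came without the LacZ pair, which left 2 risen and 1 fallen replication-dependent probe sets and 1 fallen variant, and without the G12V pair the counts were 4, 2 and 2. H2BC21, H2BC5 209911_x_at, the H4 probe set 205967_at and H2AX 205436_s_at passed in all 3 fits. The share of all probe sets called in these 3 fits is not given here.

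Among the listed genes that make or handle histone mRNA and protein, every gene called with TGF-beta3 fell. For these counts and those below, 11.0% of all probe sets tested rose and 11.7% fell. Of 21 measured genes for histone transcription and 3′ end processing 0 rose and 5 fell, with a median log2 change of -0.32. SLBP, which binds the stem-loop of histone mRNA, changed by -0.84 ± 0.11 (SE; adjusted p = 0.00682). CASP8AP2, CPSF4, LSM10 and LSM11, factors of histone gene transcription, the U7 particle or 3′ end cleavage, fell by 0.54 to 0.60. Of 27 histone chaperones 0 rose and 11 fell, among them HJURP (-1.52), ASF1B (-1.47), CHAF1A (-1.32) and NASP (-1.04). Of the 27, 6 had a log2 change above 0, among them TSPYL2 at 0.63, which did not pass (adjusted p = 0.0521 in limma). The centromeric H3 gene CENPA changed by -1.25 (adjusted p = 0.00421). All 24 measured genes of the S phase list fell, with a median of -1.34, and 3 of 4 CDK inhibitors rose: CDKN2B by 2.55, CDKN1A by 2.43 and CDKN2A by 0.85. Whether the histone changes depend on this shift in cell cycle genes was not tested.

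With the RAS vectors, most replication-dependent histones were above LacZ for N116Y and below it for G12V, in differences that did not pass the threshold. Both contrasts against LacZ share the LacZ arrays, so they are not independent of each other. Against LacZ, HRAS N116Y called 0 of 34 histone probe sets (0.0367% of all probe sets were called higher and 0.0262% lower), and the smallest adjusted p was 0.228. At an unadjusted p under 0.05, 11 histone probe sets were higher and 0 lower, against 7.58% and 4.60% of all. Of the 23 replication-dependent probe sets 19 had a log2 difference above 0, with a median of 0.39, against 0.021 over all probe sets, and the variant median was -0.064. In 10 histone probe sets both N116Y arrays lay above both LacZ arrays and in 1 below, against 16.1% and 9.90% of all; without H4C8 and H2AC14, which reached the signal limit on an N116Y array only, the 10 are 8. At least 2-fold above LacZ were 0 histone probe sets untreated (1.23% of all) and 3 with TGF-beta3 (2.96% of all), or 2 (H2AC6 and H1-2) without H4C8, whose limit was reached on that array alone, and 0 were at least 2-fold below (0.823% and 1.61% of all).

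H2AC6 was 111 and 189 with LacZ and 160.2 and 438 with N116Y, untreated and with TGF-beta3. These ranges overlapped, and the log2 difference was 0.88 ± 0.26 (SE; adjusted p = 0.311). H1-2 was 56.2 and 61.0 with LacZ and 83.5 and 133 with N116Y, a difference of 0.85 ± 0.23 (SE; adjusted p = 0.268). H2BC21 differed by 0.78 ± 0.20 (SE; adjusted p = 0.257) and H1-10 by 0.55 ± 0.13 (SE; adjusted p = 0.236). The H4 probe set 205967_at had the lowest value, -0.70 ± 0.30 (SE; adjusted p = 0.426). None of these passed the threshold.

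HRAS G12V against LacZ likewise called 0 of 34 histone probe sets, and 0.0% of all probe sets in either direction. At an unadjusted p under 0.05, 2 histone probe sets were higher and 8 lower, against 2.68% and 2.88% of all. None of the 34 was 2-fold apart from LacZ in either TGF-beta state, where 0.309% and 0.404% of all probe sets were at least 2-fold higher and 0.362% and 0.451% lower. The replication-dependent median was -0.28, with 16 of 23 below 0, and the variant median was 0.21, with 11 of 11 above 0. H2BC5 209911_x_at had the lowest value, -0.63 ± 0.12 (SE; adjusted p = 0.851), with 250.1 and 504 on the LacZ arrays and 169 and 313 on the G12V arrays. H1-10 had the highest, 0.45 ± 0.13 (SE; adjusted p = 0.851). Missing the threshold with this number of arrays does not show that the vectors act alike on these genes.

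Set against each other, the RAS vectors gave calls in 2 of 10 H2B probe sets and in none of the other families. Of the 34, 2 were lower with G12V than with N116Y and 0 higher (0.729% and 0.294% of all probe sets). H2BC5 209911_x_at was 169 and 313 with G12V and 356 and 665 with N116Y, a log2 difference of -1.09 ± 0.12 (SE; adjusted p = 0.0346). H2BC12L, a further H2B gene, was 275 and 361 against 532 and 617, a difference of -0.86 ± 0.12 (SE; adjusted p = 0.0445), with no overlap between the vectors. Both are x_at probe sets, and both calls were lost when only the 4 arrays of these vectors were fitted.

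The next 5 probe sets in order of adjusted p did not pass: H2BC12 at -0.74 (adjusted p = 0.0502), H2BC5 222067_x_at at -0.81 (0.052), H2AC18/H2AC19 218280_x_at at -1.11 (0.0582), H2AC18/H2AC19 214290_s_at at -0.91 (0.069) and H2BC21 at -1.05 (0.0861). At an unadjusted p under 0.05, 2 histone probe sets were higher and 12 lower with G12V, against 7.76% and 10.5% of all. In 15 of 23 replication-dependent probe sets (13 without H4C8 and H2AC14) both G12V arrays lay below both N116Y arrays, against 18.0% of all probe sets, and in 0 of 11 variants. At least 2-fold lower with G12V were 2 histone probe sets untreated (2.44% of all) and 8 with TGF-beta3 (3.64% of all), or 7 without H4C8, all replication-dependent, and 0 were at least 2-fold higher (1.25% and 2.30% of all). The replication-dependent median was -0.74 and the variant median 0.12, against -0.016 over all. The S phase list had a median of 0.47 in this contrast with 0 genes called, and of the CDK inhibitors CDKN2B was lower with G12V, at -2.19 (adjusted p = 0.0251).

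The TGF-beta3 response was also read within each vector, from 1 pair of arrays each and with no test. At least 2-fold higher with TGF-beta3 were 3 replication-dependent probe sets with LacZ, 2 with G12V and 4 with N116Y (3.93%, 5.00% and 4.56% of all probe sets), and at least 2-fold lower were 3, 4 and 2 (3.87%, 4.19% and 4.47%). The 4 with N116Y are 2 without H4C8 and H3C6, which reached the signal limit on the treated N116Y array alone. Of the variants 1, 0 and 2 were at least 2-fold lower and 0 higher. H2BC21 had log2 ratios of 1.26, 1.07 and 1.48 in LacZ, G12V and N116Y cells, and H2BC5 209911_x_at 1.01, 0.89 and 0.90, close together across vectors. H2AC6 spread more, at 0.77, 0.38 and 1.45, as did the H4 probe set 205967_at, at -2.46, -1.16 and -1.93.

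H2AX 205436_s_at had -0.80, -0.63 and -1.40, lowest with N116Y, and H2AC25 -1.26, -1.01 and -0.45, nearest to 0 with N116Y. Probe set 208490_x_at, which names 5 H2B genes, had negative ratios with LacZ and G12V (-0.35 and -0.77) and a positive one with N116Y (0.58). Its sister probe set for the same 5 genes, 208523_x_at, did not repeat this, at 0.11, -0.26 and 0.06 in LacZ, G12V and N116Y cells. With 1 array a group, such differences between vectors have no measured error.

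The siRNA pair was compared within itself only, and the knockdown was not checked: the level of the p53 transcript was not analysed here, so the arrays are named by their labels alone. p53 is a transcription factor that arrests the cell cycle after damage, and HaCaT cells carry mutant p53. With p53 siRNA, 12 of the 34 histone probe sets were at least 2-fold lower than with control siRNA and 0 were at least 2-fold higher, against 6.83% lower and 2.48% higher of all probe sets. Without the H3 probe set 206110_at, which reached the signal limit on the control siRNA array only, the 12 are 11. By class, 9 of 23 replication-dependent (8 without 206110_at) and 3 of 11 variant probe sets were at least 2-fold lower. The median log2 ratio was -0.67 for the replication-dependent and -0.26 for the variant probe sets, against 0.0 over all. There is 1 array a group, hence no test and no replicate check of any of these ratios.

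The replication-dependent probe sets with the lowest ratios were H2A, H2B and H1 genes. H2BC21 was 78.6 on the control array and 17.0 on the p53 siRNA array, the latter below the floor of 20. H2AC18/H2AC19 214290_s_at went from 523 to 137 and 218280_x_at from 274 to 87.2, log2 ratios of -1.93 and -1.65. These are among the genes that rose with TGF-beta3. H1-2 was 315 and 103 (-1.62), H2AC25 260.5 and 92.0 (-1.50), and H2AC6 408 and 163 (-1.32). H2BC12 and H2BC5 moved less, with ratios of -0.55 for 209806_at and -0.51 and -0.17 for both H2BC5 probe sets.

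The H4 probe set 205967_at was 5306 on the control array and 3135 on the p53 siRNA array (-0.76). Its sister probe set 208580_x_at had 52.5 and 62.0 (0.24), so the pair of probe sets for the same 14 genes went opposite ways.

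Among the variants, H1-10 went from 685 to 332 (-1.05), H2AX 205436_s_at from 1624 to 966 (-0.75), and H2AZ1 from 4217 to 4361 (0.05). The 4 H2AZ2 probe sets disagreed. Probe sets 212205_at and 212206_s_at went from 953 to 261 and from 167 to 44.7, log2 ratios of -1.87 and -1.90. The other H2AZ2 probe sets were at -0.26 (227085_at) and 0.25 (202487_s_at), so no single direction can be given for this gene.

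The S phase list did not move with the histones in this pair: its median log2 ratio was 0.13, with 1 of 24 genes at least 2-fold lower (GINS1, -1.08). For this count and the list counts that follow, 6.83% of all probe sets were at least 2-fold lower. Of the histone transcription and 3′ processing list 3 of 21 were at least 2-fold lower (NCBP2, HINFP and ERI1), with a median of -0.093, and SLBP was at 0.073. Of the chaperones 1 of 27 was at least 2-fold lower (DAXX, -1.26), with a median of 0.29. CDKN1A, a known p53 target, had a signal of 406 on the control array and 313 on the p53 siRNA array. On both siRNA arrays the 3′ to 5′ signal ratio of the actin control probe sets was higher, 3.68 and 4.01, than the 1.16 to 1.39 of the adenovirus arrays, and the part of RNA length in these ratios was not tested.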

How the data were processed

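RNA from 8 HaCaT samples was hybridised to Affymetrix arrays, 1 array a group. The authors deposited 1 linear intensity per probe set, for which the submitters' processing notes name MAS5 5.0. Detection calls were not used here. Here every array was rescaled to a mean of 100, trimmed by 2%; values under 20 were raised to 20 before log2 was taken, which shrinks changes of dim probe sets.

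Probe sets were named through the dated platform annotation (41097 with 1 symbol, 1801 with several and 11777 unnamed here). Replication-dependent and variant classes were set by symbol. The members and gene lists were chosen with earlier results of these data known.

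Probe sets with a signal of at least 50 on any array, 19073 in all, entered a fit on the 6 adenovirus arrays, with limma 3.58.1 (R 4.3.3), vector and TGF-beta state as additive terms and an eBayes prior with a trend. Benjamini-Hochberg adjusted p under 0.05 was called. The 2 residual degrees of freedom also hold any interaction of vector and TGF-beta; the prior had 3.80 and the median residual SD was 0.166. The number of arrays limits the precision, and no error can be given for single pairs. The fit was tested on simulated data in which 200 of 19073 probe sets changed. With TGF-beta3 the real fit called 2102 probe sets higher and 2223 lower. The adjusted threshold depends on that number, so the simulated TGF-beta3 rates do not describe the real fit. A log2 change of 0.5 was recovered in 0.5% of changed probe sets for TGF-beta3 and in 0% for G12V and for N116Y against LacZ. A change of 1 was recovered in 93.5%, 69% and 78.5%, and 5.6%, 6.8% and 8.2% of the calls were false. The siRNA arrays were described by log2 ratios, and 1 result planned for them is not reported here. Where a listed gene had several single-symbol probe sets, the brightest on average stood for it. Any histone probe set over the signal limit could be named, with values on all arrays for those with the largest changes and for the variants; of each list up to 4 genes were to be named, and the fifth called gene of the processing list and the lists' lowest siRNA ratios were added after their values were seen. Alternatives changed the floor, the filter, the scaling, the prior, the probe sets, the vector block and the arrays used. Promoter sequences are RefSeq's (GRCh38.p14); the arrays carry no coordinates here.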

Additional observations from a re-analysis of the deposited data

How the results depend on the processing

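None of the probe sets called with TGF-beta3 or between the RAS vectors changed direction under the alternatives run; other single values were not rerun. With TGF-beta3, the 8 replication-dependent probe sets that rose became 3 with a floor of 50, 0 with no filter, 1 with no vector block and 4 of 7 when only probe sets with 1 symbol and without the suffix x_at were counted. The 3 that fell became 1, 0 and 1 with a floor of 50, with no filter and with those probe sets only. The 4 variants that fell became 0 with a floor of 50, 0 with no filter and 2 with no vector block; 0 variants rose in any of these fits. Leaving out 1 vector's pair gave 2 to 7 risen and 1 to 4 fallen replication-dependent probe sets and 1 to 3 fallen variants. The 2 probe sets lower with G12V than with N116Y became 7 with a floor of 10, 8 with a signal of 50 on at least 2 of the 6 adenovirus arrays and 7 with a limit of 100. They became 0 with a floor of 50, no filter, a prior without trend, only the 4 arrays of these vectors, or the 1-symbol probe sets. The p53 siRNA median of the replication-dependent probe sets (-0.67) was -0.51 with a floor of 50, 0.0 with no filter and -1.32 over the 1-symbol probe sets, and that of the variants (-0.26) was -0.081 and 0.0 with a floor of 50 and no filter. Without a filter most probe sets sit at the floor on all arrays, which sets those medians and leaves the fit a prior of 0.149 degrees of freedom. The prior had 5.22 degrees of freedom with a floor of 10 and 8.12 with a signal of 50 on at least 2 of the 6 adenovirus arrays, against 3.80 in the main fit. The share of all probe sets called in each alternative fit is not given here. These counts thus do not show whether a change was particular to histones. The cause of the other changes was not tested. The vector pairs the untreated and treated arrays of the main fit; the labels carry no replicate numbers, and no further pairing was tried.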

Other observations

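Some histone genes lie outside the name rule. The replacement histone H3.3 is made by H3-3A and H3-3B, and 8 probe sets that also name a pseudogene or a microRNA host were left out for that reason. Their log2 change with TGF-beta3 ran from -0.19 to 0.35, and none passed (adjusted p of 0.0894 to 0.517 in limma). One of them, 208755_x_at, had 4966, 5745 and 5288 on the untreated LacZ, G12V and N116Y arrays and 6808, 6381 and 6618 with TGF-beta3, without overlap. Also higher without overlap were 209069_s_at, 211940_x_at, 211997_x_at and 213828_x_at. In 211998_at the treated arrays were lower without overlap, and in 200080_s_at and 211999_at the ranges overlapped. Of all probe sets tested, 17.9% were higher and 20.7% lower without overlap.

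MACROH2A1 encodes a large H2A variant found on silent chromatin. Its probe set 207168_s_at was 999.95 and 831 on the LacZ arrays, untreated and with TGF-beta3, and 1720.4 and 1527 on the G12V arrays. The N116Y arrays, at 1060.2 and 1008, were near LacZ. The log2 difference of G12V from LacZ was 0.83 (adjusted p = 0.851 in limma), and 0.76 in the second MACROH2A1 probe set, 214501_s_at (adjusted p = 0.851). H2AJ, an H2A variant gene with polyadenylated mRNA, had log2 changes of -0.47 and -0.30 with TGF-beta3 in 224301_x_at and 225245_x_at (adjusted p = 0.05005 and 0.0795).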
